A study of Mus with 96 samples.

Results

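A group of 3 secreted proteins and a set of bile duct genes were followed through mouse livers that differed in diet, in the hepatocyte clock and in the time of day. The genes were Spp1 (osteopontin), Npnt (nephronectin) and Serpine2 (protease nexin-1), and the ductular genes Sox9, Krt7, Krt19, Epcam and Cd24a. These 8 genes were taken by name from a table of 55487 genes, and all 8 were among the 15548 genes that reached 100 counts in total and were tested. Spp1, Npnt and Serpine2 are treated as selected on their measured levels by diet, genotype and time of day, so those differences are given for them as levels and fold changes without a test. The 5 ductular genes are known markers of bile duct cells, and their adjusted p-values come from a fit over all tested genes. They too were listed with earlier results of these data known, so these p-values are not independent evidence.

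Osteopontin is a secreted, integrin-binding matrix protein that biliary cells and activated macrophages make in the liver, and it is known for its rise in steatohepatitis and fibrosis. Nephronectin is a matrix ligand of integrin alpha 8. Protease nexin-1 is a secreted serpin that inhibits thrombin and the plasminogen activators. Cholangiocytes line the bile ducts and are marked by the keratins Krt7 and Krt19, the adhesion protein Epcam and the surface glycoprotein Cd24a. Sox9 is the transcription factor of biliary identity, and injured hepatocytes can also express it. In a ductular reaction, biliary cells and their progenitors expand around the portal tracts.

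The livers came from 96 C57BL/6J mice, with loxP sites around Bmal1 in every animal. The mice were aged 8 to 10 weeks at the start, before acclimation and the 2 weeks of diet. Hep-Bmal1KO mice carried 1 Alb-cre allele, which was used to delete Bmal1 in hepatocytes. Whether the gene was intact in bile duct cells was not tested. Hep-Bmal1WT mice were Cre-negative littermates. Each genotype ate chow (14% fat, 27% protein, 59% carbohydrate) or cdHFD, a choline-deficient diet of 60% fat, 9% protein and 31% carbohydrate with 2% cholesterol and 0.17% methionine, for 2 weeks. Livers were taken at 6 times, zeitgeber time (ZT) 2, 6, 10, 14, 18 and 22 h after lights on, from 4 mice per genotype, diet and ZT. These were 2 males and 2 females, except that Hep-Bmal1WT on cdHFD at ZT 14 had 3 males and 1 female. Levels are in CPM, the counts of a gene scaled to a common library total, of the 3′ ends of transcripts, with 24 libraries in each genotype and diet.

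Depth ran from 1861740 to 9718615 counts per library, with a median of 6412078. A 3′ count of Arntl, the gene of BMAL1, cannot show a deletion upstream of the 3′ end, so the labels were checked on clock genes and on 20 other genes that differ between the genotypes. By both, 7 libraries sat with the genotype they were not labelled as: 4 labelled Hep-Bmal1WT (2 chow, 2 cdHFD) and 3 labelled Hep-Bmal1KO (2 chow, 1 cdHFD). They were kept as labelled, and each result that rests on them is also given without them. In 3 libraries of Hep-Bmal1KO mice at ZT 18, transcripts of pancreatic acinar cells reached 599 to 2478 CPM in sum. Samples of each genotype and diet filled their own columns of the library plate, and within each the pairs ZT 2 and 6, 10 and 14, and 18 and 22 had a column each. Plate column therefore cannot be told apart from genotype and diet, nor from time between those pairs. In whole liver, more cells of a type and more RNA per cell cannot be told apart either.

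Spp1 had its lowest levels in Hep-Bmal1WT on chow and its highest in Hep-Bmal1KO on cdHFD. In Hep-Bmal1WT livers on chow its lowest, median and highest values were 21.3, 35.6 and 123 CPM. In Hep-Bmal1KO livers on chow they were 39.1, 62.5 and 109 CPM. On cdHFD they were 40.7, 79.2 and 185 CPM in Hep-Bmal1WT and 54.4, 181 and 669 CPM in Hep-Bmal1KO. The order of the means was therefore Hep-Bmal1WT on chow (40.04 ± 21.66 CPM, SD, n = 24), Hep-Bmal1KO on chow (62.5 ± 17.9), Hep-Bmal1WT on cdHFD (89.2 ± 36.9) and Hep-Bmal1KO on cdHFD (214.5 ± 138.1). The middle groups overlapped widely, and 11 of the 24 Hep-Bmal1KO livers on cdHFD exceeded the highest Hep-Bmal1WT liver on that diet.

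Fitted fold changes followed that order. The diet difference in Spp1 was 1.16 ± 0.16 (log2 ± SE) in Hep-Bmal1WT and 1.69 ± 0.17 in Hep-Bmal1KO. The genotype difference was 0.68 ± 0.13 on chow and 1.22 ± 0.17 on cdHFD, and the mean of Hep-Bmal1KO was the higher at 6 of 6 times on cdHFD. The value of 123 CPM on chow belonged to a Hep-Bmal1WT library that sat with the other genotype. Without the 7 discordant libraries the chow group of Hep-Bmal1WT ended at 82.2 CPM. The highest mean was that of Hep-Bmal1KO on cdHFD at ZT 10, 396 ± 213 CPM (SD, n = 4), against 121 ± 46.05 CPM in Hep-Bmal1WT.

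**Figure D1:**
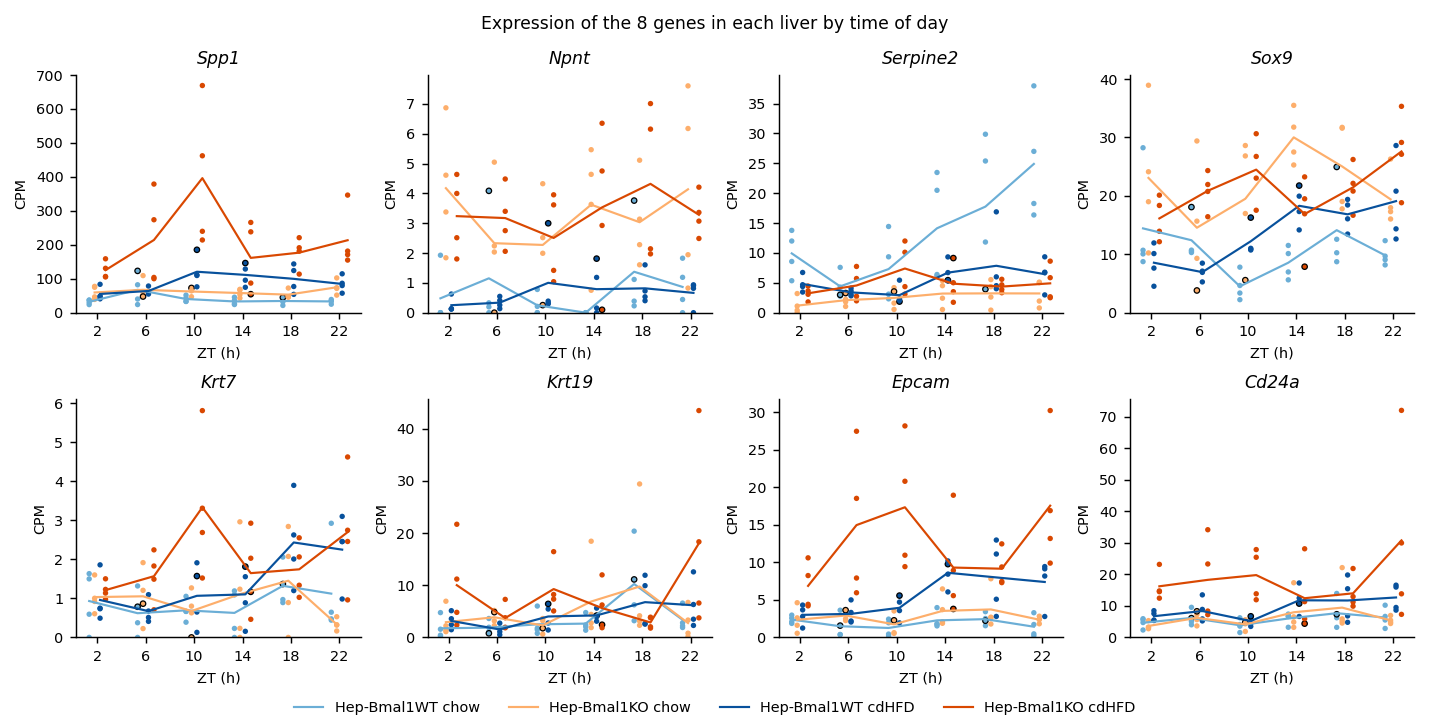
Level in CPM (y axis) of each of the 8 genes at ZT 2 to 22 h (x axis) in the 4 combinations of genotype and diet; points are livers (4 per time), lines join means, and black rings mark the 7 discordant libraries. Spp1 is highest in Hep-Bmal1KO on cdHFD, Npnt is near 0 in most Hep-Bmal1WT livers, and Serpine2 is highest in Hep-Bmal1WT on chow, up to 37.95 CPM.

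Npnt levels lay apart by genotype, with the medians on the 2 diets close to each other. Hep-Bmal1WT livers had lowest, median and highest values of 0, 0.202 and 4.09 CPM on chow and 0, 0.406 and 2.999 CPM on cdHFD. Hep-Bmal1KO livers had 0, 2.83 and 7.61 CPM on chow and 0.0972, 3.22 and 7.01 CPM on cdHFD. The group mean was higher in Hep-Bmal1KO at 6 of 6 times on both diets.

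The overlap between the genotypes in Npnt was narrower without the discordant libraries. The 4 of them labelled Hep-Bmal1WT held 4.09, 3.76, 2.999 and 1.81 CPM of Npnt, while the medians of the other livers of their own group and ZT were 0.156 to 0.388 CPM. The 3 labelled Hep-Bmal1KO held 0, 0.253 and 0.0972 CPM. Without the 7, Hep-Bmal1WT livers on chow reached 1.93 CPM and the lowest Hep-Bmal1KO liver on chow had 0.752 CPM. The genotype difference was then 3.13 ± 0.39 (log2) on chow, against 2.22 ± 0.45 with all libraries, and 2.83 against 2.36 ± 0.30 on cdHFD.

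Npnt was also a sparse measurement, with a median of 9 counts per library. It had no count in 14 libraries, 11 of them Hep-Bmal1WT on chow, including all 4 at ZT 14. A count of 0 there allows up to 0.596 to 0.767 CPM (3 counts of the library, counting error only). The diet differences were -0.03 ± 0.53 in Hep-Bmal1WT and 0.03 ± 0.27 in Hep-Bmal1KO. The first of these was 1.185 without the livers numbered replicate 2 and ran from -0.532 to 1.185 as each replicate was left out, so its direction is not settled by these data.

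Serpine2 had the opposite order to Npnt on chow. Hep-Bmal1WT livers on chow had lowest, median and highest values of 2.31, 10.6 and 37.95 CPM, against 0, 2.33 and 5.53 CPM in Hep-Bmal1KO. On cdHFD the genotypes lay together, at 1.86, 4.60 and 16.9 CPM in Hep-Bmal1WT and 1.74, 4.12 and 12.0 CPM in Hep-Bmal1KO. On chow, 12 of 24 Hep-Bmal1KO livers were below the lowest Hep-Bmal1WT liver, and the mean was lower at 6 of 6 times.

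The diet difference in Serpine2 had opposite signs in the genotypes. It was -1.19 ± 0.21 (log2) in Hep-Bmal1WT and 0.95 ± 0.26 in Hep-Bmal1KO. The genotype difference was -2.24 ± 0.29 on chow and -0.10 ± 0.21 on cdHFD, which makes a genotype-by-diet term of 2.15 ± 0.36. That term was 0.54 ± 0.22 for Spp1 and 0.16 ± 0.55 for Npnt.

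Among the 5 ductular genes, Epcam and Cd24a rose on cdHFD in both genotypes, which is 2 of 5 in Hep-Bmal1WT and, with Krt7, 3 of 5 in Hep-Bmal1KO. By edgeR's quasi-likelihood test at an adjusted p under 0.05, 55.7% of all tested genes differed with diet in Hep-Bmal1WT (28.4% higher) and 61.9% in Hep-Bmal1KO (32.4% higher), so these counts are near the background. Without the discordant libraries Sox9 was called as well in Hep-Bmal1WT, which made 3 of 5 against 54% of all genes. Epcam was at 0.210, 1.85 and 3.97 CPM (lowest, median, highest) in Hep-Bmal1WT on chow and at 1.25, 4.85 and 12.97 CPM on cdHFD. In Hep-Bmal1KO it was at 0.543, 2.46 and 7.81 CPM on chow and at 3.79, 9.66 and 30.2 CPM on cdHFD. Its increase was 1.52 ± 0.24 (log2) in Hep-Bmal1WT (adjusted p = 3.5e-07) and 2.08 ± 0.24 in Hep-Bmal1KO (adjusted p = 1.3e-10), with the mean higher at 6 of 6 times in each.

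Cd24a rose less steeply. Its lowest, median and highest values were 1.55, 5.77 and 13.96 CPM in Hep-Bmal1WT on chow and 3.49, 8.03 and 19.8 CPM on cdHFD. In Hep-Bmal1KO they were 1.89, 5.05 and 22.2 CPM on chow and 4.38, 13.8 and 72.1 CPM on cdHFD. The increase was 0.67 ± 0.17 (log2) in Hep-Bmal1WT (adjusted p = 5.5e-04) and 1.56 ± 0.26 in Hep-Bmal1KO (adjusted p = 6.5e-07).

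The ductular keratins were low and variable. Krt7 had a mean of 0.886 CPM ± 0.690 (SD, n = 24) in Hep-Bmal1WT on chow, 0.942 ± 0.836 in Hep-Bmal1KO on chow, 1.41 ± 0.982 in Hep-Bmal1WT on cdHFD and 2.03 ± 1.25 in Hep-Bmal1KO on cdHFD. Its diet difference passed the test in Hep-Bmal1KO (1.01 ± 0.31, adjusted p = 0.0038) and missed it in Hep-Bmal1WT (0.58 ± 0.30, adjusted p = 0.0958). Krt19 differed by 0.36 ± 0.27 (adjusted p = 0.259) and 0.67 ± 0.40 (adjusted p = 0.145) with diet. In Hep-Bmal1KO on cdHFD, Krt19 ran from 1.78 to 43.5 CPM around a median of 4.94 CPM, so that a few livers carried the mean of 8.25 CPM.

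Sox9 passed the test for genotype on both diets and, in all libraries, for diet in neither genotype. It was at 2.23, 10.1 and 28.2 CPM (lowest, median, highest) in Hep-Bmal1WT on chow and at 3.80, 21.6 and 38.9 CPM in Hep-Bmal1KO on chow. On cdHFD it was at 4.53, 13.04 and 28.6 CPM in Hep-Bmal1WT and at 7.87, 20.8 and 35.3 CPM in Hep-Bmal1KO. Its diet differences missed the threshold, at 0.34 ± 0.18 (adjusted p = 0.116) and -0.04 ± 0.16 (adjusted p = 0.854). Without the discordant libraries the first was 0.40 ± 0.17 and passed (adjusted p = 0.0483). Its genotype difference passed on both diets, at 1.06 ± 0.20 on chow (adjusted p = 1.2e-04) and 0.69 ± 0.13 on cdHFD (adjusted p = 1.4e-04).

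On chow Sox9 was the only one of the 5 ductular genes called between genotypes, against 12.5% of all genes, and it remained the only one without the discordant libraries, against 17%. The other 4 had differences of 0.07 to 0.58 and adjusted p-values from 0.141 to 0.943. On cdHFD, Sox9, Epcam and Cd24a were higher in Hep-Bmal1KO, which is 3 of 5 against 9.67% of all genes. Epcam was 1.15 ± 0.22 higher (log2, adjusted p = 2.7e-04) and Cd24a 0.98 ± 0.22 (adjusted p = 0.00175), each with a higher mean at 6 of 6 times. Krt19 was at the edge, with 0.84 ± 0.30 (adjusted p = 0.0587), and passed without the 7 libraries (0.94, adjusted p = 0.0339), which made 4 of 5 against 13%. Those libraries were picked by genotype position, so genotype calls that appear only without them are not independent evidence. Krt7 differed by 0.54 ± 0.24 (adjusted p = 0.153).

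Whether the genotype difference itself depended on diet was tested for the ductular genes, and 0 of 5 passed by edgeR (3.04% of all genes did). At an unadjusted p under 0.05 there was 1 of 5, Cd24a, with 0.90 ± 0.31 (adjusted p = 0.0925), and DESeq2 called 1 of 5 (lowest adjusted p = 0.0456). Without the discordant libraries edgeR also called 1 of 5 (lowest adjusted p = 0.0487). The larger genotype difference of Cd24a on cdHFD than on chow is thus at or short of the threshold. That of Epcam had an unadjusted p above 0.05 by edgeR in all libraries.

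**Figure D2:**
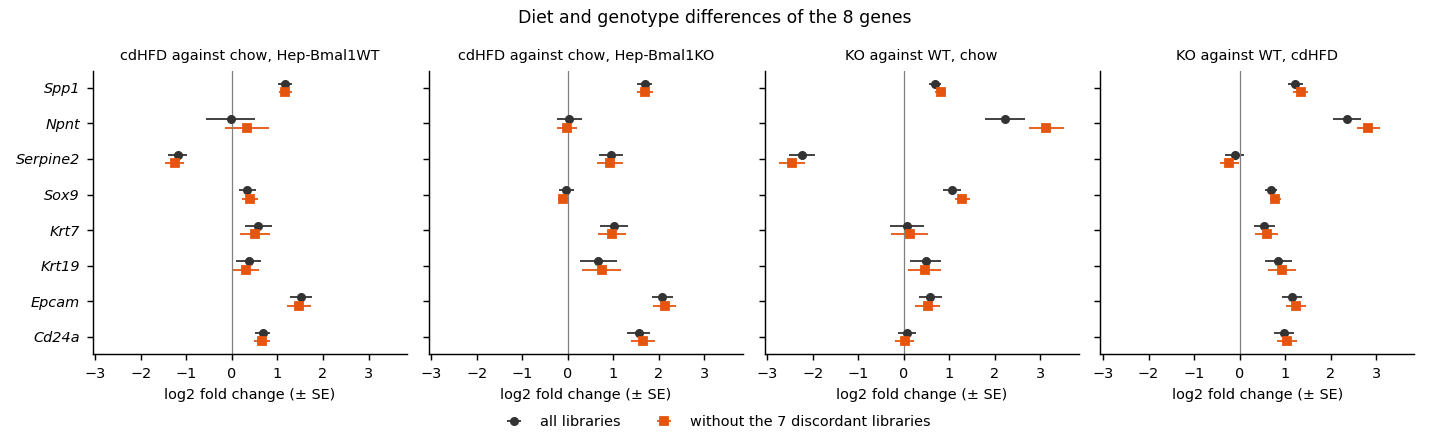
Log2 fold change ± SE (x axis) of the 8 genes (y axis) for diet in each genotype and for genotype on each diet, with all 96 libraries and without the 7 discordant ones. Spp1 and Epcam lie to the right of 0 for diet in both genotypes, Serpine2 changes side with genotype, and Npnt moves further right without the discordant libraries, from 2.22 to 3.13 on chow.

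The levels also differed by sex. Serpine2 was lower in females, with a female-minus-male difference of -1.13 ± 0.23 (log2, adjusted p = 2.6e-04) on chow and -0.75 ± 0.18 (adjusted p = 0.0062) on cdHFD. Its means in males and females were 18.3 ± 10.9 and 7.84 ± 5.13 CPM (SD, n = 12 each) in Hep-Bmal1WT on chow, and 3.58 ± 1.75 and 1.55 ± 1.202 CPM in Hep-Bmal1KO on chow. On cdHFD they were 6.29 and 4.25 CPM in Hep-Bmal1WT and 6.51 and 3.26 CPM in Hep-Bmal1KO, so the male mean was the higher in 4 of 4 groups. Epcam was higher in females on chow by 0.70 ± 0.24 (adjusted p = 0.0296). That made 2 of 8 genes called by sex on chow, against 18.1% of all genes, and 1 of 8 on cdHFD, against 5.81%.

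On cdHFD the group means of Spp1, Epcam and Cd24a lay further apart between genotypes in males than in females, a difference that edgeR did not call in all libraries. Male livers had an Epcam mean of 4.95 ± 3.26 CPM (SD, n = 13) in Hep-Bmal1WT and 16.3 ± 9.20 CPM (n = 12) in Hep-Bmal1KO. Female livers had 6.54 ± 3.45 CPM (n = 11) and 8.77 ± 3.27 CPM (n = 12). Spp1 means were 80.9 and 267 CPM in males and 99.0 and 162 CPM in females. In males alone the genotype difference of Epcam was 1.79 ± 0.29 and in females alone 0.51 ± 0.19 (adjusted p = 0.14), and for Cd24a it was 1.47 and 0.46.

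A genotype-by-sex term on cdHFD, added after the levels by sex had been seen, was -0.93 ± 0.31 (log2, female minus male) for Spp1, -1.35 ± 0.40 for Epcam and -1.03 ± 0.41 for Cd24a. By edgeR it was called for 0 of 8 genes and for 0 of all 15548 (0%), while 4 of the 8 and 1251 of all genes had an unadjusted p under 0.05. DESeq2 called 0 of the 8 and 11 genes in all. Without the 7 discordant libraries it was -1.11 ± 0.26 for Spp1, given as a description, and -1.62 ± 0.37 for Epcam. By edgeR it was then called for Epcam (adjusted p = 0.0372), 1 of the 5 ductular genes against 0.296% of all genes. The term was added with levels seen and those libraries were picked by genotype position, so this call is not independent evidence. The term therefore rests on whether those libraries are included. On chow, edgeR called it for 0 of 8 genes, with 0 at an unadjusted p under 0.05 and 0 by DESeq2, against 0.341% of all genes.

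**Figure D3:**
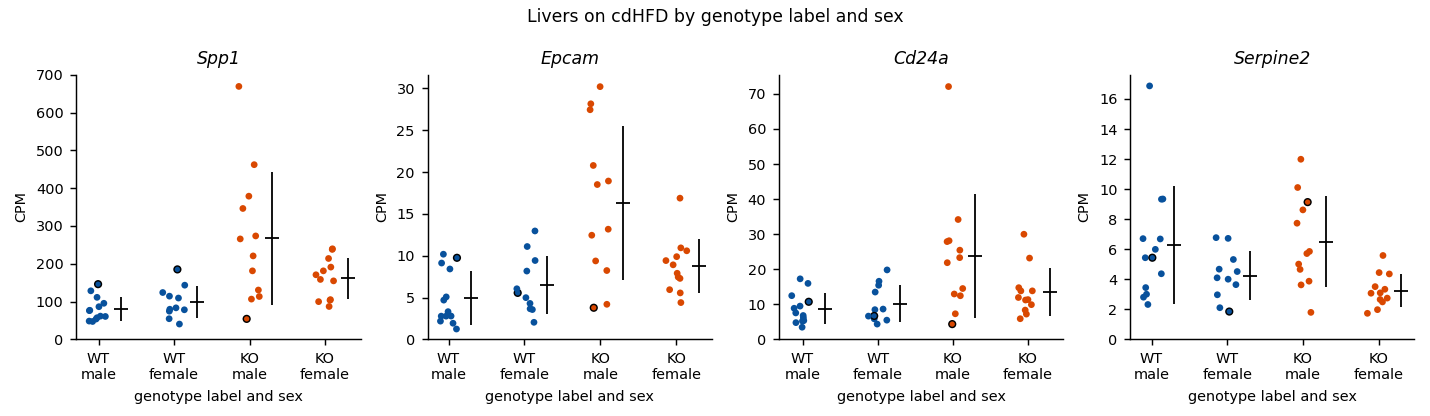
Level in CPM (y axis) of Spp1, Epcam, Cd24a and Serpine2 in male and female livers on cdHFD by genotype (x axis); points are livers, bars are means and error bars the SD. The mean of Epcam is 16.3 CPM in male and 8.77 CPM in female Hep-Bmal1KO livers, while Serpine2 is higher in males of both genotypes.

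Ductular genes varied with the time of day in Hep-Bmal1WT on cdHFD. A cosine curve of 24 h was called by edgeR for 4 of the 5, Sox9, Epcam, Krt7 and Krt19, against 14.3% of all genes, and for 4 of 5 without the discordant libraries, against 13%. The count depended on test and replicates. DESeq2 called 5 of 5, while a cosinor F test on log2 CPM and the fits without replicate 1 or 3 called 2 of 5, Sox9 and Epcam, and without replicate 4 only Sox9 passed. Sox9 had a log2 amplitude of 0.72 ± 0.12 (SE) with a peak at ZT 17.1 ± 0.64 h (adjusted p = 2.9e-04). Its mean went from 6.94 ± 1.32 CPM at ZT 6 (SD, n = 4) to 19.1 ± 7.26 CPM at ZT 22.

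Epcam peaked at ZT 17 ± 0.94 h with an amplitude of 0.79 ± 0.20 (adjusted p = 0.0028), from 3.003 ± 1.32 CPM at ZT 2 to 8.61 ± 1.86 CPM at ZT 14. Krt7 (ZT 19.6, adjusted p = 0.0291) and Krt19 (ZT 18.1, adjusted p = 0.0315) had their fitted peaks later in the dark phase, and Cd24a missed the threshold by edgeR (adjusted p = 0.0661). For the secreted proteins, whose levels by ZT were in view when they were chosen, the fitted curves are descriptions. In Hep-Bmal1WT on cdHFD Spp1 had an amplitude of 0.51 ± 0.13 and a peak at ZT 14.2 ± 1.0 h, and Serpine2 a peak at ZT 19.2 ± 1.1 h.

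In Hep-Bmal1WT on chow, 1 of the 5 ductular genes was called, against 18.7% of all genes. This was Krt19, with a peak at ZT 17.5 ± 1.2 h (adjusted p = 0.0124), and it missed the threshold without the discordant libraries (adjusted p = 0.0546). Serpine2 had a fitted amplitude of 1.07 ± 0.26 and a peak at ZT 19.8 ± 0.94 h there, with means of 4.40 ± 2.22 CPM at ZT 6 and 24.9 ± 9.86 CPM at ZT 22. The share of reads not aligned moved the same way in these libraries, from 17.8% ± 0.419 at ZT 6 to 27.7% ± 6.48 at ZT 22 (SD, n = 4), and was higher in males (26.9%) than in females (20.3%), as was Serpine2. The part of this share in the levels of Serpine2 was not tested.

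In Hep-Bmal1KO livers, edgeR called 0 of the 5 ductular genes on chow (4.35% of all genes) and 0 of 5 on cdHFD (3.81%). None of the 5 had an unadjusted p under 0.05 on either diet by edgeR, and DESeq2 called 0 on both. The difference in rhythm between the genotypes was then tested itself, a test added after the rhythms had been seen. It was called for 0 of 5 genes on chow (0.386% of all genes) and 0 of 5 on cdHFD (0.431%) by edgeR, and for 0 on both by DESeq2. On cdHFD 3 of 5 had an unadjusted p under 0.05, with the smallest adjusted p for Sox9 (0.203), and on chow 0 of 5. These data therefore do not show that the rhythms of the ductular genes differed between genotypes.

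Whether the ductular genes moved together with the secreted proteins was asked within groups, after the mean of each genotype, diet and ZT had been removed from log2 CPM, which takes out differences between the groups as labelled but not those of the 7 discordant libraries. The 3 × 5 pairs gave 15 correlations over 96 libraries, each tested by 100000 shuffles within genotype, diet and ZT (two-sided permutation test, Benjamini-Hochberg adjusted over the 15). Spp1 correlated with all 5 ductular genes. Pearson's r was 0.55 with Epcam (rho 0.54) and 0.54 with Cd24a (rho 0.54), both with adjusted p = 7.5e-05, which rests on the smallest permutation p the shuffles can give (1e-05). It was 0.36 with Krt19 (rho 0.39, adjusted p = 0.0028), 0.31 with Sox9 (rho 0.29, adjusted p = 0.0115) and 0.29 with Krt7 (rho 0.34, adjusted p = 0.0200). Deviations of Spp1 and Cd24a had the same sign in 66 of 96 libraries, and those of Spp1 and Epcam in 62. Without the 2 libraries farthest from the median of Spp1, r was 0.52 with each of them.

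Leaving out the 7 discordant libraries, Spp1 kept its relation to Epcam (r = 0.54), Cd24a (0.55) and Krt19 (0.40), while those with Sox9 (0.20, adjusted p = 0.152) and Krt7 (0.29, adjusted p = 0.0536) missed the threshold. Npnt correlated with Sox9 (r = 0.48, rho 0.43, adjusted p = 0.00125) and with Krt7 (r = 0.29, rho 0.26, adjusted p = 0.0397) in all libraries. Without the discordant ones these were 0.13 (adjusted p = 0.518) and 0.22 (adjusted p = 0.175). With the difference between the sexes also removed, r of Npnt and Sox9 over all 96 libraries was 0.62 (adjusted p = 5e-05, permutation test). In Hep-Bmal1WT on cdHFD alone it was 0.63 (rho 0.72, adjusted p = 0.00215, permutation test). Without the discordant libraries r in that group was 0.58 (adjusted p = 0.0844) and rho 0.69 (adjusted p = 0.00845), while in the other 3 groups r lay between -0.18 and 0.27. Serpine2 was correlated with none of the 5 by the permutation test (r from -0.12 to 0.03, smallest adjusted p = 0.544, 0 of 5 at an unadjusted p under 0.05).

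Within single groups of 24 livers, which are also single blocks of the plate, the relation appeared on cdHFD. In Hep-Bmal1KO on cdHFD, Spp1 correlated with Epcam (r = 0.89, rho 0.88, adjusted p = 6e-04), Cd24a (r = 0.80, rho 0.79), Krt19 (r = 0.69), Krt7 (r = 0.64) and Sox9 (r = 0.62), 5 of 5 pairs by the permutation test. In Hep-Bmal1WT on cdHFD it correlated with Cd24a (r = 0.81, rho 0.80, adjusted p = 0.0012) and Epcam (r = 0.79, rho 0.79, adjusted p = 0.00215), 2 of 5 pairs. The pairs of Spp1 with Epcam and Cd24a stayed called in both genotypes without the discordant libraries and after the difference between the sexes had also been removed.

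On chow 0 of 15 pairs passed in either genotype by the permutation test. There r between Spp1 and Epcam was 0.32 in Hep-Bmal1WT and 0.17 in Hep-Bmal1KO, and between Spp1 and Cd24a 0.28 and -0.00. The difference in r between the diets was not tested. Ductular counts were lower on chow, where Epcam had medians of 1.85 and 2.46 CPM, and their part in the weaker correlations was not tested.

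**Figure D4:**
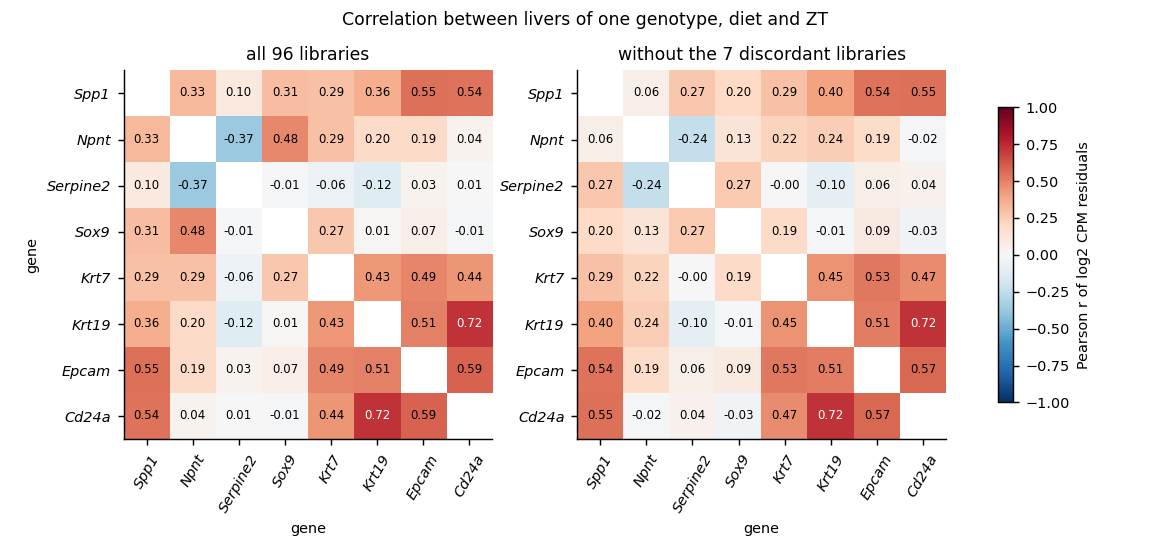
Pearson's r (colour) of the 8 genes with each other, from log2 CPM after the mean of each genotype, diet and ZT was removed, over all 96 libraries and over the 89 that remain without the discordant ones. Spp1 with Epcam and Cd24a is near 0.5 in both, Npnt with Sox9 goes from 0.48 to 0.13, and Krt19 with Cd24a is the highest pair.

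Serpine2 passed the test with ductular genes in Hep-Bmal1KO on cdHFD. It correlated with Epcam (r = 0.60, rho 0.60, adjusted p = 0.0414) and Krt7 (r = 0.59, rho 0.53, adjusted p = 0.0423) by the permutation test. Without the 1 discordant library of that group the values were 0.86 (adjusted p = 9.75e-04) and 0.68 (adjusted p = 0.00983), and 4 of 5 pairs passed. After the difference between the sexes had been removed they were 0.40 (adjusted p = 0.187) and 0.29 (adjusted p = 0.251), and 0 of 5 passed. Male livers of this group held more of both Serpine2 (6.51 against 3.26 CPM) and Epcam (16.3 against 8.77 CPM).

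**Figure D5:**
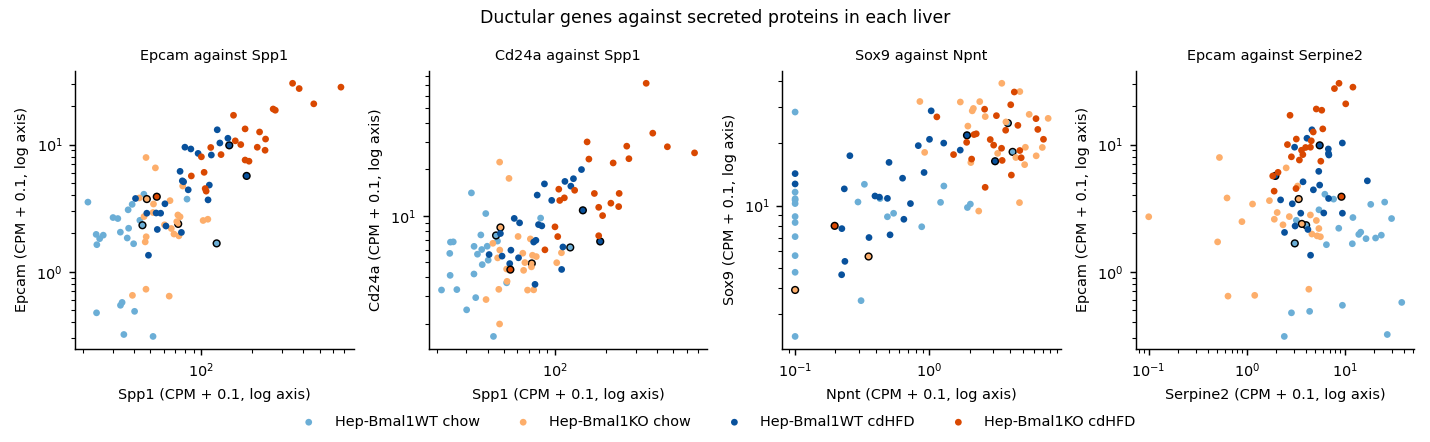
Level of a ductular gene (y axis) against that of a secreted protein (x axis), both as CPM + 0.1 on log scales, in the 96 livers, coloured by genotype and diet with discordant libraries ringed; pairs are Spp1 with Epcam, Spp1 with Cd24a, Npnt with Sox9 and Serpine2 with Epcam. Spp1 and Epcam rise together to 669 and 30.2 CPM, while Serpine2 and Epcam show no common slope over all livers (r = 0.03 after group means were removed).

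The ductular genes also varied together, with Sox9 apart. After group means were removed, r was 0.72 between Krt19 and Cd24a, 0.59 between Epcam and Cd24a and 0.51 between Krt19 and Epcam, and Krt7 had 0.43 to 0.49 with the 3 of them. Sox9 had r of 0.01 with Krt19, 0.07 with Epcam and -0.01 with Cd24a, and 0.27 with Krt7. These correlations are descriptions over 96 libraries that share depth and plate, and no test was made of them. Over the 24 group means, r was 0.87 between Spp1 and Epcam, 0.79 between Spp1 and Cd24a, 0.79 between Npnt and Sox9 and 0.91 between Epcam and Cd24a.

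The genes whose within-group deviations were most like those of a secreted protein were read from 12271 genes with at least 1 CPM on average. For Spp1 they were Scara3 (r = 0.70), Bicc1 (0.61), Col1a2 (0.57), Col3a1 (0.56) and Adamtsl2 (0.56), and Epcam and Cd24a ranked 7 and 8. Bicc1 is an RNA-binding protein of biliary and renal epithelium, and Col1a2 and Col3a1 encode fibrillar collagens. For Serpine2 they were Serpina1e (0.68), Mup15 (0.66), Mup17 (0.65), Mup19 (0.65) and Crygn (0.64), all between 0.59 and 0.70 without the discordant libraries. Major urinary protein genes are abundant in male liver, and members of the Mup and Serpina1 families are near-identical copies whose counts are uncertain. For Npnt the first 4 were Tox2 (0.63), Gstm2 (0.62), Zfp839 (0.62) and Spon2 (0.61), and these were 0.11 to 0.30 without the discordant libraries.

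By the 24 group means, the genes most like Spp1 were Scara3 (r = 0.94), Sox4 (0.94), Rab27b (0.93), Cyp4a31 (0.92) and Mtnr1a (0.91). Those most like Npnt were Hebp2 (0.92), Tox2 (0.89), Gstm2 (0.87), Smo (0.87) and Atp11a (0.87). Those most like Serpine2 were Caln1 (0.86), Praf2 (0.84), As3mt (0.80), Lefty1 (0.80) and Cpne2 (0.79). Scara3 thus led for Spp1 on both measures. Tox2 and Gstm2 were near Npnt on both only with the discordant libraries included. Without those libraries their within-group r was 0.11 and 0.16.

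Of 18 further cholangiocyte genes, 15 reached 100 counts. On cdHFD 9 of the 15 were higher in Hep-Bmal1KO and 0 lower, with a median of 0.75 (log2) against 0.01 over all genes, where 4.75% of genes were higher. Without the discordant libraries 10 were higher. Dcdc2a, a ciliary protein of cholangiocytes, was higher by 1.31 ± 0.22 (adjusted p = 3.4e-05) and Bicc1 by 0.89 ± 0.15 (adjusted p = 4.2e-05). On chow 2 of 15 were higher, among them Pkhd1, the fibrocystin gene, by 1.12 ± 0.21, against 7.08% of all genes. With diet, 8 of 15 rose and 2 fell in Hep-Bmal1WT, and 10 rose and 2 fell in Hep-Bmal1KO, where 28.4% and 32.4% of all genes rose. Ddr1, a collagen receptor kinase, rose by 2.51 ± 0.17 in Hep-Bmal1WT and 3.19 ± 0.16 in Hep-Bmal1KO, while Atp1b1 fell by 0.50 and 0.34. The summed level of the 18 genes was 133 to 224 CPM in Hep-Bmal1WT on chow, 121 to 246 CPM in Hep-Bmal1KO on chow, 168 to 264 CPM in Hep-Bmal1WT on cdHFD and 163 to 368 CPM in Hep-Bmal1KO on cdHFD.

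The receptors of osteopontin and nephronectin rose with diet and differed little with genotype. In Hep-Bmal1WT 8 of 10 rose on cdHFD, and in Hep-Bmal1KO 9 of 10, against 28.4% and 32.4% of all genes higher with diet. Cd44, a receptor of osteopontin and hyaluronan, rose by 2.23 ± 0.11 (log2) and 2.42 ± 0.11, and the integrin gene Itgb5 by 0.72 and 0.79. Between genotypes, 1 of 10 passed on cdHFD against 9.67% of all genes, Itgav (0.21 ± 0.07, adjusted p = 0.029). On chow edgeR and DESeq2 called 0 of 10, with 1 at an unadjusted p under 0.05. Of all genes, edgeR called 12.5% on chow.

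Enzymes that cut, cross-link or phosphorylate osteopontin were split, with 4 of 6 tested higher and 1 lower on cdHFD in each genotype. Of all genes, 28.4% were higher with diet in Hep-Bmal1WT and 32.4% in Hep-Bmal1KO. Mmp12, the macrophage elastase, rose by 6.11 ± 0.13 (log2) and 6.29 ± 0.13, and Tgm2, a transglutaminase, by 1.24 and 1.02. F2, the thrombin gene, fell by 0.69 and 0.94. Between genotypes on cdHFD, Mmp7, a matrilysin of biliary epithelium, was 1.10 ± 0.33 higher in Hep-Bmal1KO (adjusted p = 0.0233) and Mmp12 0.36 ± 0.10, while the kinase gene Fam20c was lower (-0.25).

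The proteases that protease nexin-1 inhibits, with their receptors, were 4 of 7 higher and 3 lower with diet in both genotypes. The share of all genes higher with diet was 28.4% in Hep-Bmal1WT and 32.4% in Hep-Bmal1KO. Plaur, the urokinase receptor gene, rose by 3.23 ± 0.33 (log2) in Hep-Bmal1WT and 4.51 ± 0.30 in Hep-Bmal1KO, and Plg, the plasminogen gene, fell by 1 and 1.24. Between genotypes, 2 of 7 were higher in Hep-Bmal1KO on each diet, against 7.08% of all genes on chow and 4.75% on cdHFD. On chow, where Serpine2 was low in Hep-Bmal1KO, these were Plg (0.46 ± 0.07, adjusted p = 1e-05) and F2 (0.22 ± 0.05). On cdHFD they were Plat, the tissue plasminogen activator gene (0.86 ± 0.19, adjusted p = 0.00119), and Plg (0.21 ± 0.06).

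Notch and YAP genes, the pathways known to drive biliary fate, rose in 8 of 13 in each genotype on cdHFD (28.4% and 32.4% of all genes). The 1 that fell in Hep-Bmal1WT was Yap1 itself (-0.22 ± 0.06). Hey1, a Notch target, rose by 2.13 ± 0.24 and 2.65 ± 0.22, and Ccn2, a YAP target, by 1.61 ± 0.24 and 2.91 ± 0.29. On cdHFD 3 of 13 were higher in Hep-Bmal1KO (4.75% of all genes), among them Ankrd1 (1.36 ± 0.33) and Ccn2 (0.83 ± 0.21, adjusted p = 0.0058). Both are known YAP targets. On chow edgeR and DESeq2 called 0 of 13 between genotypes, with 1 at an unadjusted p under 0.05.

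With diet, genes of hepatocyte injury rose in 11 of 12 in Hep-Bmal1WT and 12 of 12 in Hep-Bmal1KO, against 28.4% and 32.4% of all genes. They were led by Anxa2 (3.59 and 3.63) and S100a11 (3.30 and 3.54). Between genotypes on cdHFD 5 of 12 were higher (4.75% of all genes), among them S100a6 (0.61 ± 0.12) and Cdkn1a (0.50 ± 0.10), with a median of 0.25. On chow 2 were higher (7.08% of all genes) and 1, Tnfrsf12a, was lower (-0.56). In either direction 12.5% of all genes were called on chow. Hepatocyte genes, the tissue's own markers, summed to 51450 to 220800 CPM, and 8 of 8 fell with diet in both genotypes. Of all 15548 genes, 4246 fell in Hep-Bmal1WT and 4600 in Hep-Bmal1KO.

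Markers of other liver cells also rose with diet, and some of their lists differed with genotype. Of all genes, 28.4% were higher with diet in Hep-Bmal1WT and 32.4% in Hep-Bmal1KO. With diet, 7 of 7 Kupffer cell genes rose in each genotype, among them Cd5l (2.41 and 2.59, log2), and their summed mean went from 247 to 837 CPM in Hep-Bmal1WT and from 232 to 799 CPM in Hep-Bmal1KO. Of 8 genes of lipid-associated macrophages 7 rose with diet in each genotype, among them Lgals3 (4.19 and 4.79), and Fabp5 fell by 1.04 and 0.73. Between genotypes on cdHFD, 8 of 8 genes of lipid-associated macrophages were higher in Hep-Bmal1KO, against 4.75% of all genes. Their median was 0.51 (log2), and among them were Gpnmb (0.89 ± 0.12) and Fabp5 (0.65 ± 0.09). Of 12 stellate cell and fibroblast genes, 8 were higher, also against 4.75%, with a median of 0.47, among them Timp1 (0.73 ± 0.14) and Dcn (0.25 ± 0.06). On chow 2 of the 8 macrophage genes were higher in Hep-Bmal1KO, Cd9 (1.001 ± 0.13, adjusted p = 2.5e-07) and Atp6v0d2 (1.47 ± 0.41, adjusted p = 0.0116), against 7.08% of all genes. Of Kupffer cell genes on cdHFD, 0 of 7 were higher and 1, Clec4f, lower (-0.35). On chow the stellate list had 0 of 12 called by edgeR and by DESeq2, with 1 at an unadjusted p under 0.05.

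The summed macrophage list was 651 to 1078 CPM in Hep-Bmal1WT and 637 to 1616 CPM in Hep-Bmal1KO on cdHFD, and the stellate list 589 to 1219 and 569 to 1881 CPM. On chow they were 135 to 621 and 141 to 796 CPM for macrophages, and 196 to 460 and 172 to 423 CPM for stellate cells. No gene of either list was at 0 in a group. Within groups, the stellate sum had r of 0.59 with Spp1, 0.59 with Epcam and 0.52 with Cd24a. The macrophage sum had 0.47 with Spp1, 0.16 with Epcam and 0.10 with Cd24a, and the Kupffer cell sum 0.12, 0.21 and -0.04. The cholangiocyte sum had r of 0.63 with Cd24a, 0.62 with Krt19, 0.50 with Epcam, 0.38 with Krt7, 0.37 with Spp1 and -0.04 with Sox9. Sox9 had r of 0.45 with the macrophage sum and -0.53 with the hepatocyte sum, and 0.26 and -0.25 without the discordant libraries. With Serpine2 the stellate, macrophage and cholangiocyte sums had r of -0.21, 0.15 and -0.22, and without the discordant libraries -0.12, 0.35 and -0.22. With Npnt they had 0.35, 0.18 and 0.30, and without the discordant libraries 0.26, -0.16 and 0.42. The part of these cells in the levels of Spp1, Sox9, Epcam and Cd24a was not tested.

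Counts in the remaining lists stand against 28.4% and 32.4% of all genes higher with diet, and 55.7% and 61.9% in either direction. Sinusoidal endothelial genes rose in 3 of 7 with diet in Hep-Bmal1WT and in 4 of 7 in Hep-Bmal1KO, led by Lyve1 (1.46 and 1.88), with 1 lower, and edgeR and DESeq2 called 0 of 7 between genotypes on either diet (2 on chow and 1 on cdHFD at an unadjusted p under 0.05). Of 7 lymphocyte and neutrophil genes, 5 rose in Hep-Bmal1WT and 3 in Hep-Bmal1KO, where 1 fell. On cdHFD 2 of the 7, the neutrophil genes S100a8 and S100a9, were higher in Hep-Bmal1KO by 0.47 and 0.39, against 4.75% of all genes. Mesothelium also expresses keratins, and of its 6 genes edgeR called 0 in any of the 4 comparisons, 1 had an unadjusted p under 0.05 (diet in Hep-Bmal1WT), and DESeq2 called 1 (diet in Hep-Bmal1KO). Within groups, the mesothelium sum had r of 0.42 with Krt19, 0.37 with Krt7, 0.21 with Epcam, 0.16 with Cd24a and -0.01 with Spp1. The part of mesothelium in the keratin levels was not tested. Acinar genes fell with diet in 5 of 9 in Hep-Bmal1WT and 4 of 9 in Hep-Bmal1KO. In the 3 libraries of high acinar transcripts, Spp1 was at 72.6, 45.8 and 221 CPM and Epcam at 2.70, 2.62 and 12.5 CPM, inside the range of their groups. Krt19 was at 4.15, 3.14 and 3.77 CPM there, also inside that range. Within groups over all libraries, the acinar sum had r of 0.29 with Krt19, 0.19 with Spp1, 0.17 with Cd24a and 0.08 with Epcam. The part of acinar tissue in these levels was not tested.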

How the data were processed

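Livers of 96 mice were profiled by BRB-seq, which counts the 3′ portion of transcripts. The authors demultiplexed the reads, aligned them to mm10 with STAR and deposited raw read counts per gene (HTSeq and featureCounts are named per the labels). Versions are not given in the sources used here, nor is any collapsing of molecular identifiers. The 5 rows of unassigned reads were left out of library sizes. They hold, among others, reads not aligned (14.8 to 34.1% of a library) and reads of no feature (5.65 to 11.3%). Libraries held 1861740 to 9718615 counts, which sets the precision of low genes.

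Genes that summed to 100 counts or more over all libraries (15548) were tested with edgeR 4.0.16 in R 4.3.3 (quasi-likelihood, TMM factors, Benjamini-Hochberg adjustment, called at an adjusted p under 0.05), with ZT as a term in the diet, genotype and sex fits, by diet in the genotype-by-diet fit, and genotype as a term in the sex fits. Sex was no term in the other fits and was added as an alternative. CPM and log2 CPM (prior count 2) came from the same factors. Rhythms were tested as 24-h cosine and sine terms. Correlations used Python 3.11.15, NumPy 2.4.6, pandas 2.3.3 and SciPy 1.17.1. Scripts were tested on simulated data.

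The members and lists were chosen with earlier results of these data known. All 8 members are named. Of each list at most 4 genes are named, the 2 with the smallest p in each direction of a comparison. For each secreted protein the 5 genes of highest r are named, except 1 that is not reported here. The lists hold further cholangiocyte genes, receptors of osteopontin and nephronectin, osteopontin-processing enzymes, Serpine2 proteases, Notch and YAP genes, hepatocyte injury genes and markers of 8 other cell types. Alternatives were DESeq2 1.42.0, its size factors, other filters and prior counts, each replicate left out, each sex alone, and no discordant libraries. The genotype-by-rhythm and genotype-by-sex tests, the removal of sex from correlations, the within-group correlations without discordant libraries, and the fit without libraries of at least 500 CPM of acinar transcripts were chosen after seeing the data. Mice are separate animals, and replicate numbers were given in accession order and pair no mice. Positions (GRCm38.p6, as in the table's annotation) are: Spp1, chromosome 5 from 104435111 to 104441053; Npnt, 3 from 132881745 to 132950291; Serpine2, 1 from 79794317 to 79858665; Sox9, 11 from 112782210 to 112787757; Krt7, 15 from 101412403 to 101427806; Krt19, 11 from 100140810 to 100145926; Epcam, 17 from 87635979 to 87651127; Cd24a, 10 from 43579169 to 43584265. No promoter or protein sequence was used here.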

Additional observations from a re-analysis of the deposited data

Results flagged for a closer look

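The diet difference of Serpine2 differed between genotypes. The genotype-by-diet term was 2.149 (log2, SE 0.36), with means of 13.1 and 5.35 CPM on chow and cdHFD in Hep-Bmal1WT and 2.57 and 4.88 CPM in Hep-Bmal1KO. Serpine2 was chosen with its levels known, so this value is a description.

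A liver far from the other 3 of its genotype, diet and ZT was found 18 times among 192 sets of 4 (gap to the nearest liver, as a share of the range, above Dixon's critical value, where chance gives about 1 in 20), and 4 of these lay in the discordant libraries. Those 4 were Npnt at 4.087 CPM (Hep-Bmal1WT on chow, ZT 6) and 2.999 CPM (Hep-Bmal1WT on cdHFD, ZT 10), and Sox9 at 18.08 and 16.28 CPM in the same livers.

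A female Hep-Bmal1KO liver on chow at ZT 18 (replicate 3) stood out in 3 ductular genes at once. It had Krt19 at 29.4 CPM (the others 2.32 to 4.15), Cd24a at 22.16 CPM (4.56 to 5.89) and Epcam at 7.813 CPM (1.79 to 2.70). Its acinar transcripts summed to 17.05 CPM, against a median of 1.22 CPM in Hep-Bmal1KO on chow. Krt19 was also high in a female Hep-Bmal1KO liver on chow at ZT 14, at 18.43 CPM (1.88 to 4.41).

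Spp1 was at 346.3 CPM in a male Hep-Bmal1KO liver on cdHFD at ZT 22 (the others 154.9 to 181.4) and at 72.57 CPM in a male Hep-Bmal1KO liver on chow at ZT 18, which also held 2478 CPM of acinar transcripts. Serpine2 was at 16.87 CPM (ZT 18) and 5.438 CPM (ZT 10) in male Hep-Bmal1WT livers on cdHFD. Sox9 was at 28.24 CPM in a male Hep-Bmal1WT liver on chow at ZT 2, where another male had Npnt at 1.927 CPM and the other 3 had none. Npnt was at 0.6246 CPM in a male Hep-Bmal1WT liver on cdHFD at ZT 2 and at 0 in another at ZT 22. Krt7 was at 2.923 CPM (ZT 22) and Epcam at 3.97 CPM (ZT 14) in female Hep-Bmal1WT livers on chow. The liver at ZT 22 held 78.73 CPM of acinar transcripts in sum and the liver at ZT 14 held 0.9925 CPM.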

How the results depend on the processing

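Low counts limit Npnt and Krt7 most, with medians of 9 and 7 counts per library. No paired analysis was possible because replicate numbers were given in accession order and pair no mice.

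The calls of ductular genes for diet in Hep-Bmal1WT were 2 and fell to 1 in males alone. For genotype, 1 on chow became 0 in females alone, and 3 on cdHFD became 1 in females alone. For the genotype-by-diet term, 0 became 1 with DESeq2, without the discordant libraries and in males alone, and 0 to 1 with a replicate left out. Sex calls were 2 on chow and 5 without a filter on low counts (1 to 2 with a replicate left out), and 1 on cdHFD and 4 without a filter (0 to 1). Rhythm calls of ductular genes in Hep-Bmal1WT were 1 on chow and 0 without the discordant libraries or by a cosinor F test (0 to 1), and 4 on cdHFD and 2 by the F test (1 to 5). Without a filter, genotype-by-rhythm calls on cdHFD went from 0 to 1. Genotype-by-sex calls, counted over all 8 genes, went without a filter from 0 to 1 on chow and 0 to 3 on cdHFD. They were 2 on cdHFD without the discordant libraries. Of the 15 pairs, 7 were called, 3 without the discordant libraries, 0, 3 and 0 in Hep-Bmal1WT on chow, Hep-Bmal1WT on cdHFD and Hep-Bmal1KO on chow alone, and 3 to 6 with a replicate left out.

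Over all genes, calls for genotype on chow were 1948, with 546 in females alone and 938 to 1612 with a replicate left out. On cdHFD they were 1503, with 794 in males and 654 in females alone (535 to 1382). The genotype-by-diet term had 473, with 919 without the discordant libraries and 146 in females alone (103 to 355). Sex had 2816 on chow (1680 to 2074) and 903 on cdHFD (389 to 529). Rhythm had 2907 in Hep-Bmal1WT on chow (1445 to 1920) and 2231 on cdHFD (900 to 1509). In Hep-Bmal1KO it had 676 on chow, with 1131 by DESeq2, 264 without the libraries of high acinar transcripts and 327 by the F test (155 to 189), and 592 on cdHFD, with 1026 by DESeq2 and 355 by the F test (159 to 311). The causes were not tested.

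Differences that changed sign were uncalled in ductular genes, and ranges in brackets are with a replicate left out. For diet in Hep-Bmal1KO, Sox9 was 0.0157 with DESeq2, 0.0119 with its size factors and 0.2948 in females alone (-0.2002 to 0.0686). For genotype on chow, males alone gave -0.203 for Krt7 (-0.2158 to 0.2289) and -0.147 for Cd24a (-0.1532 to 0.2405). For the genotype-by-diet term, females alone gave -0.2002 for Krt7, -0.151 for Krt19 (-0.0642 to 1.147) and -0.199 for Epcam. Npnt depended on replicate 2, without which its diet difference in Hep-Bmal1WT was 1.185 (-0.532 to 1.185) and its genotype-by-diet term -0.9496 (-0.9496 to 0.7785). For sex on chow, Spp1 was 0.0646 without the discordant libraries (-0.156 to 0.1237). On cdHFD, Krt19 was 0.00272 with DESeq2 (-0.2246 to 0.2129), and Sox9 had -0.0595 to 0.02. The genotype-by-sex term on chow was 0.0626 for Serpine2 with DESeq2 (-0.368 to 0.2399). With a replicate left out it was -1.703 to 2.6 for Npnt, -0.2299 to 0.9661 for Krt7, -0.1608 to 1.361 for Krt19, -0.163 to 0.8709 for Epcam and -0.00803 to 0.7717 for Cd24a, and on cdHFD -0.9294 to 0.1949 for Npnt.

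Correlations that changed sign lay near 0 over all libraries or moved in a single group. Npnt with Cd24a was -0.00358 by rho, -0.0183 without the discordant libraries and -0.0424 in Hep-Bmal1WT on chow (-0.1199 to 0.1598). Serpine2 with Sox9 was 0.0083 by rho, 0.0252 with a prior count of 0.5, 0.2654 without the discordant libraries, 0.0838 in Hep-Bmal1KO on chow and 0.0956 on cdHFD (-0.0628 to 0.0565). Serpine2 with Krt19 was 0.0682 with sex removed and 0.519 in Hep-Bmal1KO on cdHFD. Serpine2 with Epcam was -0.237 in Hep-Bmal1WT on cdHFD and -0.211 in Hep-Bmal1KO on chow (-0.0961 to 0.1614), and with Cd24a -0.0839 and -0.339 (-0.0595 to 0.0632). Serpine2 with Krt7 was 0.0191 in Hep-Bmal1WT on chow and 0.587 in Hep-Bmal1KO on cdHFD (-0.1217 to 0.0455). Npnt with Krt19 was -0.202 in Hep-Bmal1WT on chow, and with Krt7 -0.0295 in Hep-Bmal1KO on cdHFD. Spp1 in Hep-Bmal1KO on chow had -0.223 with Krt7, -0.0960 with Krt19 and -0.00452 with Cd24a.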
